A study of Mus musculus with 10 samples.

Results

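The 41 genes described here carry a cell through its division cycle: 10 act at entry into S phase (G1/S), 13 replicate DNA or supply its building blocks, and 18 act in G2 and mitosis. They were chosen by name from the 33641 gene symbols that the count files list, by a rule that takes no measured value, although earlier results of these data were known, and all 41 were among the 17477 genes tested. The levels were measured by bulk RNA-seq of polyA RNA from dissected mandibular prominences (MNPs), the paired outgrowths of the first pharyngeal arch that build the lower jaw and tongue, taken from CD1 mouse embryos at embryonic day 10.5. The groups were wild-type embryos (WT, 2 libraries), Hand2 f/f; Wnt1-Cre+ embryos (Hand2 cKO, 3 libraries) and embryos that carried Gli2 f/f together with Gli3 f/f and Wnt1-Cre+ (Gli2/3 cKO, 1 library). Hand2 encodes a bHLH transcription factor of the distal arch, and Gli2 and Gli3 encode the transcription factors of the Hedgehog pathway. Wnt1-Cre deletes floxed alleles in neural crest cells, which form the mesenchyme of the MNP, so the epithelium, endothelium, blood and muscle precursors in the same dissection keep their alleles. The sources do not give whether each library came from 1 embryo or a pool, so p-values measure the spread between these libraries. They also do not give whether the dams of these embryos received the drinking-water treatment used to keep Hand2 cKO embryos alive to later stages.

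As background, D-type cyclins bind CDK4 and CDK6 and E-type cyclins bind CDK2, and these kinases inactivate the retinoblastoma family so that E2F factors can switch on the genes of DNA synthesis. Replication origins are licensed when CDC6 and CDT1 load the MCM2-7 helicase, and geminin (Gmnn) holds CDT1 back until the next cycle. Cyclins A and B with CDK1 then drive the cell into mitosis, where the aurora kinases, PLK1 and the spindle checkpoint kinases direct chromosome segregation. Neural crest-derived mesenchyme divides rapidly at this stage, when the facial prominences grow out. In a bulk sample, a smaller share of dividing cells and less RNA per dividing cell cannot be told apart.

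Many genes of the cycle share short promoter elements, and these are shown first because their matches differed between the 3 roles. RefSeq promoters (GRCm38.p6, 250 bases before to 50 bases after each start) matched 33 of the 41 genes with 35 promoters; Ccna2, Ccnd1, Ccnd2, Ccne2, Cdc25c, Aurkb, Gmnn and Mcm4 had no match. Both strands were searched for the E2F element (TTTCCCGC, TTTGGCGC, TTTCGCGC or TTTGCCGC), for the cell cycle homology region (CHR, TTTGAA) and for the CCAAT box (CCAAT), none of which contains another, although 2 E2F matches on opposite strands can overlap. An E2F element lay in 6 of 12 replication promoters, in 2 of 8 G1/S promoters and in 1 of 15 mitosis promoters, against 2.26% of all 32851 promoters. A CHR lay in 10 of 15 mitosis promoters, in 1 of 12 replication promoters and in 0 of 8 G1/S promoters, against 17.9% of all promoters. The CCAAT box was common throughout, in 14 of 15 mitosis, 9 of 12 replication and 3 of 8 G1/S promoters against 37.4% of all promoters. These are matches of letters and not measured sites. The 150 bases before the start of 1 G1/S, 1 replication and 3 mitosis genes, printed 5′ to 3′ on the strand of the gene, show the patterns, with every match to the 3 elements in capitals. Cdc25a (phosphatase that activates CDK2, chr9:109875429-109875578, + strand) holds 2 CCAAT boxes and an E2F element; Mcm6 (helicase subunit, chr1:128359706-128359855, - strand) holds 3 E2F elements, of which 2 overlap, and 2 CCAAT boxes; Top2a (topoisomerase II alpha, chr11:99024190-99024339, - strand) holds 4 CCAAT boxes and a CHR; Mki67 (the Ki-67 antigen, chr7:135716380-135716529, - strand) holds 2 CHRs and a CCAAT box; and Ttk (spindle checkpoint kinase, chr9:83834539-83834688, + strand) holds 2 CCAAT boxes.
Cdc25a: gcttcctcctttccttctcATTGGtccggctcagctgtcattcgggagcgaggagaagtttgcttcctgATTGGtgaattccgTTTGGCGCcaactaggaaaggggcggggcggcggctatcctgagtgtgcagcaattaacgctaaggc
Mcm6: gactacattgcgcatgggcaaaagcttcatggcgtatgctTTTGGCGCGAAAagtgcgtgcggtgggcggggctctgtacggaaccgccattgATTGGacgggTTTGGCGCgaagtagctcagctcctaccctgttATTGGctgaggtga
Top2a: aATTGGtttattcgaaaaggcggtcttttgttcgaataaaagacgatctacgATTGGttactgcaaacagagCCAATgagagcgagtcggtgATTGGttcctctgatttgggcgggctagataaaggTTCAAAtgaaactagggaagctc
Mki67: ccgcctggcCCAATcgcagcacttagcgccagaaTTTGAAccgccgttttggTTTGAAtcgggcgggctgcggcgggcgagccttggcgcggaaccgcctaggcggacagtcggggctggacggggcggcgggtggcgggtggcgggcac
Ttk: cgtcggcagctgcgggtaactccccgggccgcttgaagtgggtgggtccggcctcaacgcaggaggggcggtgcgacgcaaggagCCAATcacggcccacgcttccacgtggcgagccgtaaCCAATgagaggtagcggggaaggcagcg

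Library depth ran from 21420197 to 53326697 estimated counts, and the 41 genes together took 1.03% to 1.121% of them, with at least 551 counts for each gene in each library. Hand2 checked the labels: in WT it stood at 175 and 209 CPM (counts scaled to the size of the library), and Hand2 cKO 1, 2 and 3 held 13.4, 25.5 and 15.6 CPM. In the Gli2/3 cKO library Gli2 stood at 58.3 CPM against 122 and 105 in WT, and Gli3 at 80.2 CPM against 176 and 145. The markers of neural crest mesenchyme, such as Prrx1 and Twist1, summed to 1462 to 1759 CPM over the 6 libraries, and those of neurons to 28.9 to 37.8 CPM. The erythroid markers, chiefly globins, were highest in WT 4, with a sum of 9798 CPM, and in Hand2 cKO 2, with 7990 CPM, against 2562 to 3771 CPM in the other 4 libraries, and the part of blood in the values below was not tested.

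Levels compared between genes are given per transcript length as TPM, which divides counts by length and scales each library to the same total, computed here from the estimated counts and GENCODE M21 lengths. Cdk4 led the group by far, with 1762 TPM in WT 3 and 1877 TPM in WT 4, and stood at the 99.7th percentile of all genes with a count. Pcna, the sliding clamp of DNA polymerase, followed with 477 and 530 TPM, then Top2a with 484 and 459 TPM, Cdk1 with 397 and 407 TPM and Rrm2, the small subunit of ribonucleotide reductase, with 399 and 395 TPM. At the lower end were the transcription factor E2f1 with 39.0 and 37.3 TPM, Ccne2 with 32.6 and 30.03 TPM and Cdk6 with 17.4 and 10.7 TPM. The G1/S genes therefore held both the highest and the lowest levels, while the replication genes other than Cdt1 and Cdc6 all stood above 100 TPM in both WT libraries.

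**Figure D1:**
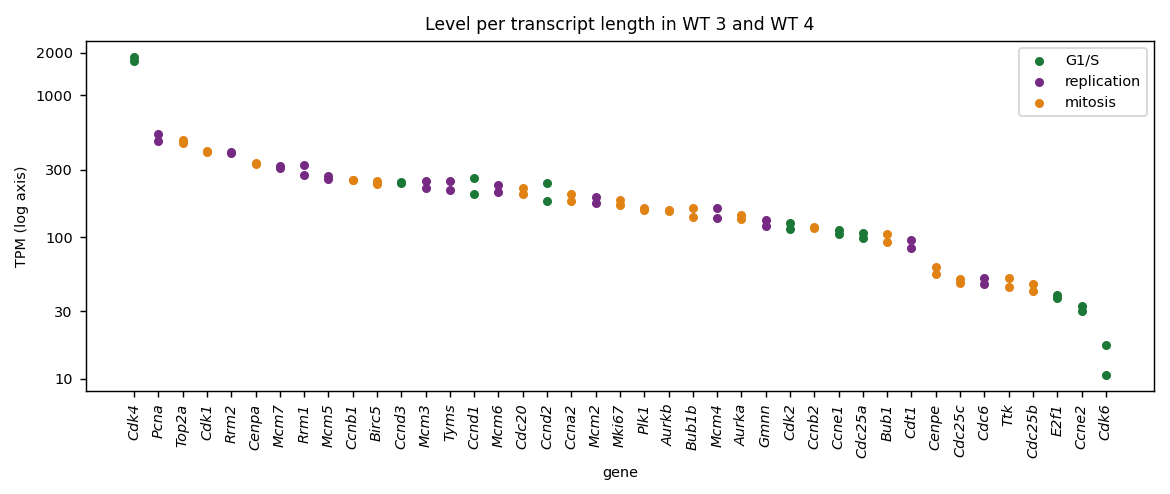
Level of the 41 genes per transcript length in WT 3 and WT 4 (TPM, log axis), 1 point per library, ordered by the WT mean and coloured by role. Cdk4 stands at 1762 and 1877 TPM and Cdk6 at 17.4 and 10.7 TPM.

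Within families the shares were uneven. Cdk4 exceeded Cdk6, its partner in phosphorylating the retinoblastoma protein, by a TPM ratio of 101 and 176 in WT, 99.1, 236 and 82.7 in Hand2 cKO and 124 for the Gli2/3 cKO library. The 3 D-type cyclins lay near each other with each transcript divided by its own length. With the length of the longest transcript for all counts of a gene, Ccnd3 went from 242 to 153 TPM in WT. Ccnd1 made up 34.9% and 32.3% of the summed TPM of the 3 D-type cyclins in WT and Ccnd2 32.4% and 29.0%. In Hand2 cKO 1 and 3 the share of Ccnd2 was 38.7% and 40.0%, and in Hand2 cKO 2 it was 25.4%. Ccne1 exceeded Ccne2 by 3.09 to 3.77 times in 5 libraries and by 6.15 times in Hand2 cKO 2, and Ccnb1 exceeded Ccnb2 by 1.84 to 2.20 times in the same 5 and by 1.16 times in Hand2 cKO 2. Geminin stood above its target Cdt1 in every library, with a TPM ratio of 1.27 and 1.58 in WT, 1.63, 2.00 and 1.37 in Hand2 cKO and 1.24 in Gli2/3 cKO. Summed over roles, mitosis genes stood to replication genes as 1.08 and 1.07 in WT, as 1.01, 1.00 and 0.981 in Hand2 cKO and as 1.02 in Gli2/3 cKO, so the WT libraries had the highest ratios.

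Hand2 cKO 2 stood apart from the other libraries, and its values followed transcript length. Among the 41 genes the deviation of log2 CPM from the gene's mean fell by 0.34 per doubling of transcript length in Hand2 cKO 2 (across genes, which are not independent replicates, r = -0.906, n = 41), against slopes of -0.02 to 0.12 in the other 5 libraries. Over all 17399 genes with a length the slope was -0.23 in Hand2 cKO 2 and -0.06 to 0.11 in the others. This library was the highest of the 6 for 24 genes and the lowest for 6, and the shares over all genes were not counted. Short transcripts were high there: Gmnn, 963 bases long, stood at 121 CPM against 54.5 to 71.6 CPM in the other libraries, Birc5, which encodes survivin of the chromosomal passenger complex, at 246 CPM against 123 to 143 CPM, and Cdk4 at 1427 CPM against 867 to 947 CPM. Long transcripts were low there: Mki67, of 10058 bases, stood at 500 CPM against 763 to 864 CPM. Gmnn, Birc5 and Cdk6 had the widest ranges over the 6 libraries, 1.15, 1.00 and 0.87 in log2 CPM, and the narrowest was that of Ccnb1 at 0.07. What set the length trend in this library was not tested, and comparisons that use it are given with and without it.

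**Figure D2:**
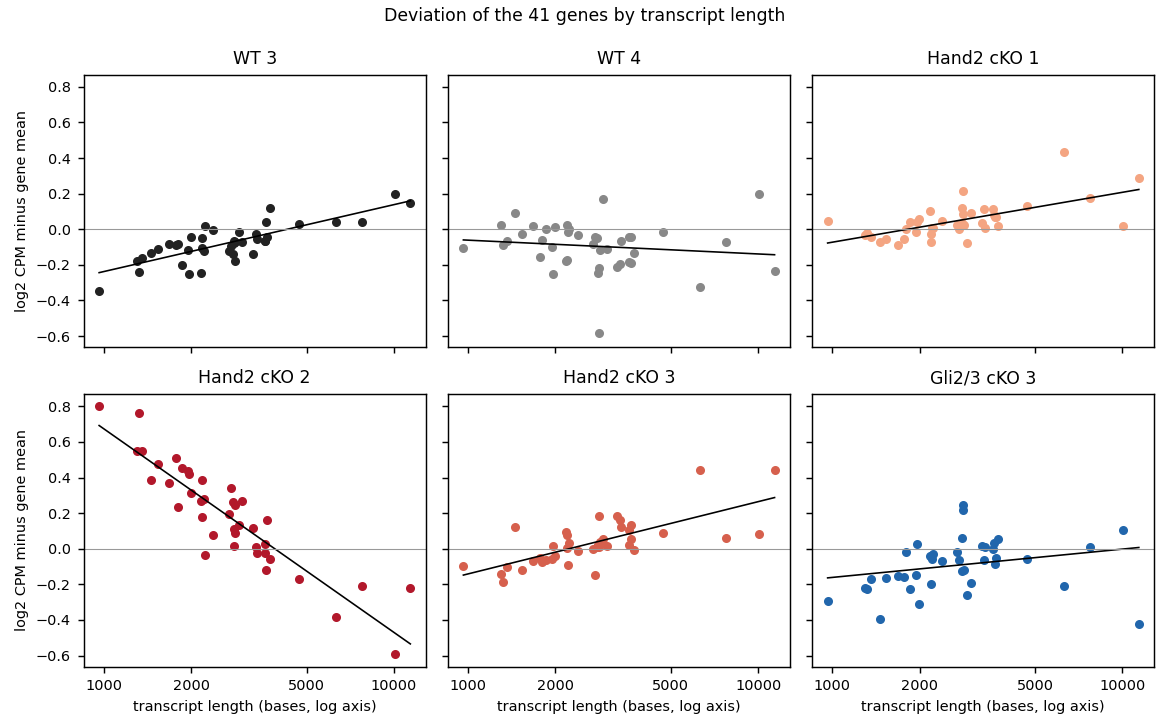
Deviation of each of the 41 genes from its mean over the 6 libraries (log2 CPM) against transcript length (bases, log axis), 1 panel per library, with the fitted line. Hand2 cKO 2 is the library with the steep downward slope of -0.34 per doubling, while the other 5 lines run between -0.02 and 0.12.

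**Figure D3:**
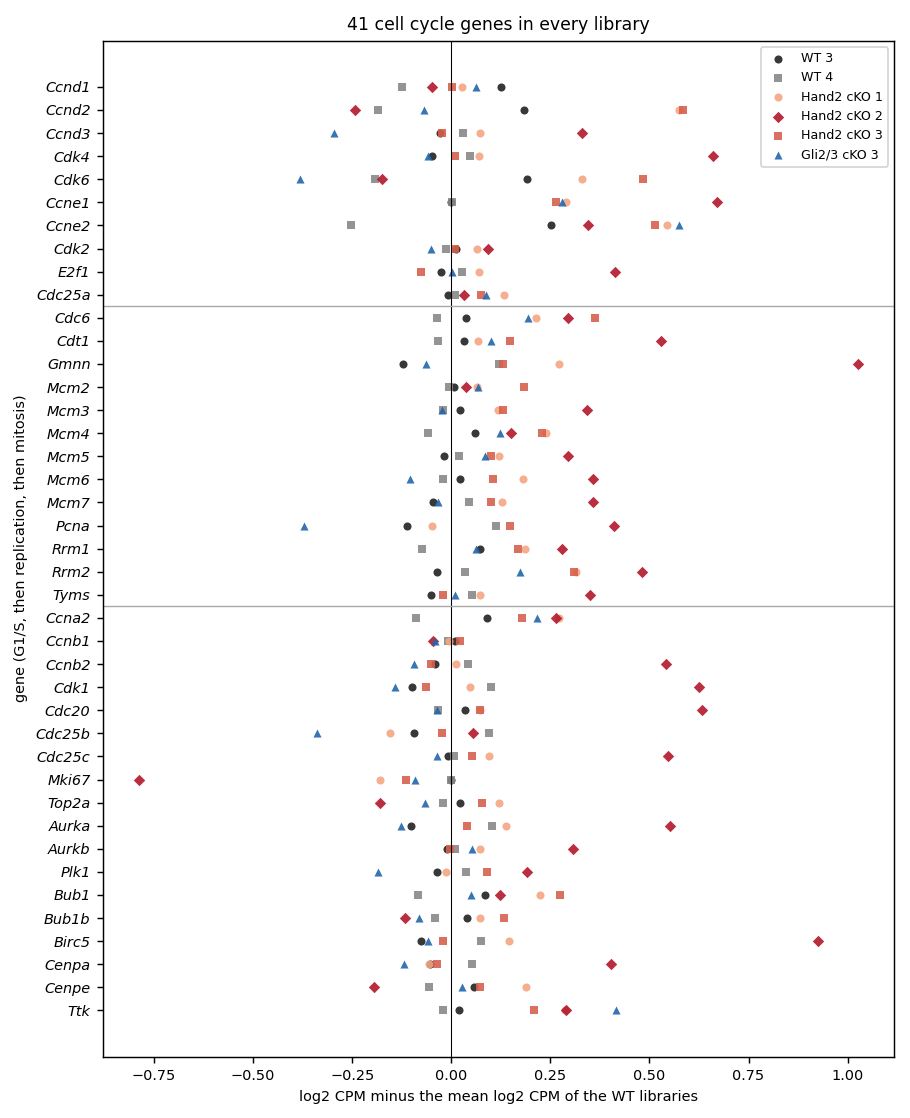
Level of the 41 genes in each of the 6 libraries as log2 CPM minus the mean log2 CPM of the WT libraries, with genes ordered by role and 1 symbol per library. The Hand2 cKO symbols of the replication genes (middle block) lie mostly to the right of both WT symbols, and Hand2 cKO 2 gives the extremes at Gmnn and Mki67.

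The first comparison asked whether loss of Hand2 in neural crest changed the division programme of the MNP. None of the 41 genes was called in Hand2 cKO against WT by edgeR's quasi-likelihood test (adjusted p below 0.05 and fold above 1.5), where 0.0114% of all genes were called. At an unadjusted p below 0.05 the count was 0 of 41 by edgeR, with 6.47% of all genes (2.44% higher and 4.02% lower). By DESeq2 it was 3 of 41, all higher, where 3.34% of all genes passed in that direction and 7.26% in either direction. DESeq2 called 0 of the 41 and 1.04% of all genes. The estimates nevertheless leaned to one side. The log2 fold change was above 0 for 37 of 41 genes, against 49.9% of all genes, and its median was 0.20 against 0.00 over all genes. All 3 Hand2 cKO libraries lay above both WT libraries for 19 genes (15.3% of all genes) and below both for 1, Mki67 (15.7% of all genes). The 41 genes summed to 10332 and 10162 CPM in WT, to 11182, 11837 and 11114 CPM in Hand2 cKO and to 10068 CPM in Gli2/3 cKO, so every Hand2 cKO library stood above both WT libraries on this scale. That order depends on the TMM scaling between libraries. As shares of library totals the sums were 1.070% and 1.073% in WT against 1.109%, 1.051% and 1.121% in Hand2 cKO. Hand2 cKO 2 was then below both WT libraries, as it was for the summed TPM of each role. Hand2 cKO 1 was also below both in summed TPM for G1/S genes (2873 against 2943 and 2894) and mitosis genes (3211 against 3352 and 3247). For replication genes Hand2 cKO 1 and 3 were above both, at 3184 and 3350 TPM against 3102 and 3021. Without TMM the median over all genes was -0.12 and that of the 41 was 0.08, with 29 of 41 above 0 (36.6% of all genes), 7 with all Hand2 cKO libraries above WT (8.80% of all genes) and 3 below (23.2% of all genes). Without Hand2 cKO 2 the median was 0.09, 33 of 41 genes had a value above 0 (47.4% of all genes) and 24 had both remaining libraries above WT (23.7% of all genes). With the length trend removed the median was 0.21, with 38 of 41 above 0 (50.7% of all genes).

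The precision of these estimates was better than that of most genes. The 95% interval lay within 1.5-fold of no change for 19 of 41 genes (20.6% of all genes) and within 2-fold for 38 of 41 (53.7% of all genes), and the other 3 were Ccnd2, Gmnn and Birc5. The sum of the neural progenitor markers also stood higher in Hand2 cKO, at 146, 151 and 145 CPM against 119 and 97.8 CPM in WT, and the Gli2/3 cKO library had 97.8 CPM. Most of that sum was Nes, an intermediate filament gene. Of the other 5 markers, Sox2 stood at 9.97 and 8.80 CPM in WT against 13.98, 13.6 and 12.9 CPM in Hand2 cKO (unadjusted p = 0.021, adjusted p = 0.723 by edgeR) and Otx2 at 0.45 and 0.40 CPM against 1.08, 1.32 and 0.99 CPM (unadjusted p = 0.0066, adjusted p = 0.594 by edgeR). Pax6 went the other way, at 0.70 and 0.62 CPM in WT against 0.45, 0.26 and 0.19 CPM in Hand2 cKO. Sox1 and Fabp7 overlapped between WT and Hand2 cKO. Sox1, Pax6 and Fabp7 lay between 0 and 1.30 CPM in all libraries. Of the 6 markers, 4 had a log2 fold change above 0 in Hand2 cKO against WT and 2 below 0. The part of other cell types in the values of the cell cycle genes was not tested.

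**Figure D4:**
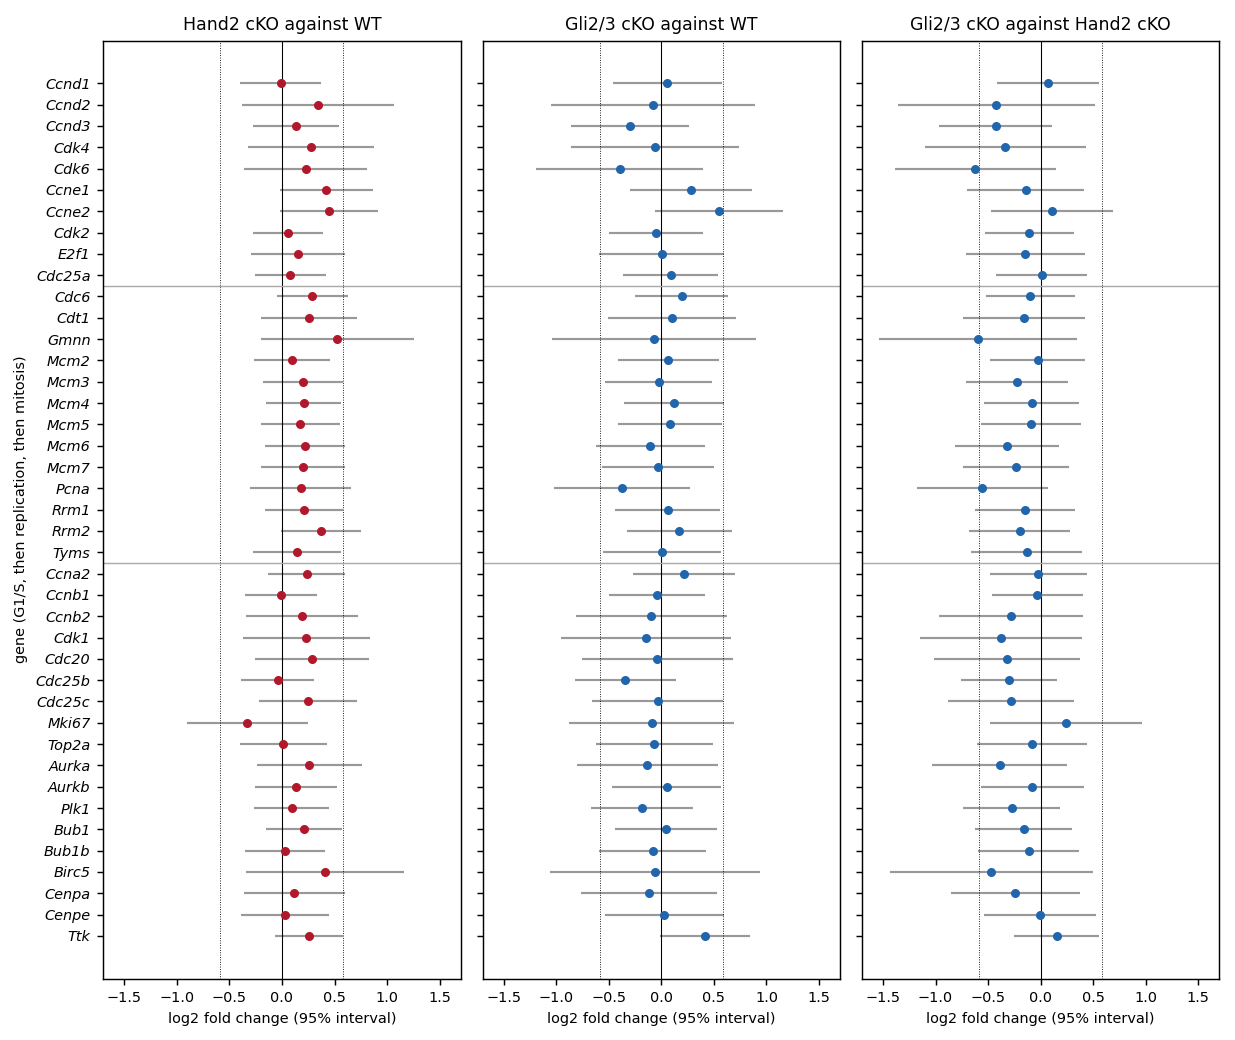
Log2 fold change of the 41 genes with its 95% interval from edgeR, for Hand2 cKO against WT, Gli2/3 cKO against WT and Gli2/3 cKO against Hand2 cKO, with genes ordered by role and dotted lines at a fold of 1.5 in either direction. All 123 intervals cross 0, and 37 of 41 points of the first panel lie to the right of it.

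The replication genes leaned most evenly. All 13 had a log2 fold change above 0 in Hand2 cKO against WT (49.9% of all genes), from 0.10 (Mcm2) to 0.53 (Gmnn) with a median of 0.21. For 11 of 13 every Hand2 cKO library stood above both WT libraries (15.3% of all genes), and the exceptions were Pcna and Tyms, thymidylate synthase. Without TMM 12 of 13 were above 0 (36.6% of all genes) and 5 of 13 apart in this way (8.80% of all genes), with a median of 0.09. Without Hand2 cKO 2 the median was 0.11, and 13 of 13 were again above 0 (47.4% of all genes) and 11 of 13 apart (23.7% of all genes). Rrm2 (chr12:24708241-24714146, mm10) stood at 395 and 415 CPM in WT, at 503, 565 and 502 CPM in Hand2 cKO, with 456 CPM in the Gli2/3 cKO library. In CPM all 3 Hand2 cKO libraries were above the Gli2/3 cKO library, and that library above WT. The TPM of Rrm2 was lower in Hand2 cKO 2, at 361, than in WT, at 399 and 395. Its log2 fold change in Hand2 cKO was 0.37 ± 0.16 (SE), or 1.29-fold with a 95% interval of 0.99 to 1.68, at an adjusted p of 0.723 by edgeR, and 0.30 ± 0.09 without Hand2 cKO 2. Cdc6, the licensing ATPase, stood at 71.9 and 68.3 CPM in WT, at 81.2, 85.9 and 90.03 CPM in Hand2 cKO, with 80.1 CPM in the Gli2/3 cKO library. No mutant library lay in the WT range of CPM, although the TPM in Hand2 cKO 2 was 42.8 against 51.3 and 47.0 in WT. The log2 fold change of Cdc6 in Hand2 cKO was 0.29 ± 0.14.

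The helicase subunits lay in a narrow band. Mcm2 to Mcm7 stood at 251 to 381 CPM in WT and, in Hand2 cKO, at 290 to 473 CPM, and on this TMM scale each of the 6 genes had all Hand2 cKO libraries above both WT libraries (15.3% of all genes). Their log2 fold changes lay between 0.10 (Mcm2) and 0.22 (Mcm6). In TPM only Mcm3 had every Hand2 cKO library above both WT libraries, at 255, 311 and 255 against 250 and 223. Mcm2 and Mcm4 to Mcm7 were below both WT libraries in Hand2 cKO 2, such as Mcm2 at 128 TPM against 192 and 175. Gmnn stood at 54.5 and 64.5 CPM in WT, at 71.6, 121 and 64.8 CPM in Hand2 cKO, with 56.7 CPM in the Gli2/3 cKO library. Hand2 cKO 3 exceeded WT 4 only narrowly, and the log2 fold change of 0.53 ± 0.30 became 0.19 ± 0.11 without Hand2 cKO 2. Cdt1, its target, stood at 94.5 and 90.4 CPM in WT, at 96.9, 133 and 102 CPM in Hand2 cKO, with 99.1 CPM in the Gli2/3 cKO library. Here too Hand2 cKO 2 was the highest library, and the log2 fold change went from 0.26 to 0.09 without it. Pcna stood at 323 and 377 CPM in WT, at 337, 465 and 387 CPM in Hand2 cKO, with 270 CPM in the Gli2/3 cKO library. WT and Hand2 cKO overlapped for this gene and the Gli2/3 cKO library was the lowest of the 6.

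Among the G1/S genes, 9 of 10 had a log2 fold change above 0 in Hand2 cKO against WT (49.9% of all genes) with a median of 0.19. Without Hand2 cKO 2 the median became 0.059, with 8 of 10 above 0 (47.4% of all genes). The E-type cyclins had the highest values. Ccne1 (chr7:38097984-38107534) stood at 96.0 and 96.2 CPM in WT, at 118, 153 and 115 CPM in Hand2 cKO, with 117 CPM in the Gli2/3 cKO library, and every mutant library lay above WT in CPM. Its TPM in Hand2 cKO 2 was 110, between the WT values of 112 and 105. Its log2 fold change in Hand2 cKO was 0.42 ± 0.18 (adjusted p = 0.723 by edgeR) and 0.26 ± 0.09 without Hand2 cKO 2. Ccne2 (chr4:11191351-11204779) stood at 34.6 and 24.4 CPM in WT, at 42.3, 36.9 and 41.4 CPM in Hand2 cKO, with 43.2 CPM in the Gli2/3 cKO library. Again no mutant library reached down to WT in CPM, although the TPM of Ccne2 in Hand2 cKO 2 was 17.8 against 32.6 and 30.03 in WT. The log2 fold change in Hand2 cKO was 0.45 ± 0.19, or 1.36-fold with a 95% interval of 0.99 to 1.88, but it was 0.72 without WT 3 and 0.22 without WT 4.

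The D-type cyclins differed from each other. Ccnd1 overlapped between groups at 450 and 378 CPM in WT, at 421, 399 and 413 CPM in Hand2 cKO, with 431 CPM in the Gli2/3 cKO library. Ccnd2 stood at 705 and 546 CPM in WT, at 924, 524 and 930 CPM in Hand2 cKO, with 592 CPM in the Gli2/3 cKO library. Hand2 cKO 1 and 3 were the highest libraries for this long transcript of 6304 bases and Hand2 cKO 2 was the lowest. Its log2 fold change was 0.34 ± 0.30 with all libraries, 0.17 without WT 4, 0.54 without WT 3, 0.21 without either Hand2 cKO 1 or Hand2 cKO 3, and 0.55 ± 0.14 without Hand2 cKO 2 (unadjusted p = 0.0097, adjusted p = 0.412 by edgeR). Ccnd3 stood at 222 and 231 CPM in WT, at 238, 285 and 223 CPM in Hand2 cKO, with 185 CPM in the Gli2/3 cKO library, the lowest value. Cdk4 stood at 873 and 933 CPM in WT, at 947, 1427 and 908 CPM in Hand2 cKO, with 867 CPM in the Gli2/3 cKO library, and its log2 fold change in Hand2 cKO went from 0.28 to 0.03 without Hand2 cKO 2. Cdk6 stood at 75.5 and 57.9 CPM in WT, at 83.1, 58.5 and 92.4 CPM in Hand2 cKO, with 50.7 CPM in the Gli2/3 cKO library. Like Ccnd2, it was high in Hand2 cKO 1 and 3 and near WT 4 in Hand2 cKO 2. E2f1 overlapped at 50.2 and 52.0 CPM in WT, at 53.7, 68.0 and 48.4 CPM in Hand2 cKO, with 51.2 CPM in the Gli2/3 cKO library.

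Without Hand2 cKO 2, 7 of the 41 genes passed an unadjusted p below 0.05 by edgeR, all higher in Hand2 cKO, where 4.26% of all genes did so in that direction. They were Ccnd2, Cdk6, Ccne1, Ccne2, Cdc6, Rrm2 and Ttk, and none was called, the lowest adjusted p among the 41 being 0.412. With the length trend removed and all libraries kept, 7 genes passed in the same direction (5.56% of all genes), with a lowest adjusted p of 0.414 at Cdk6.

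**Figure D5:**
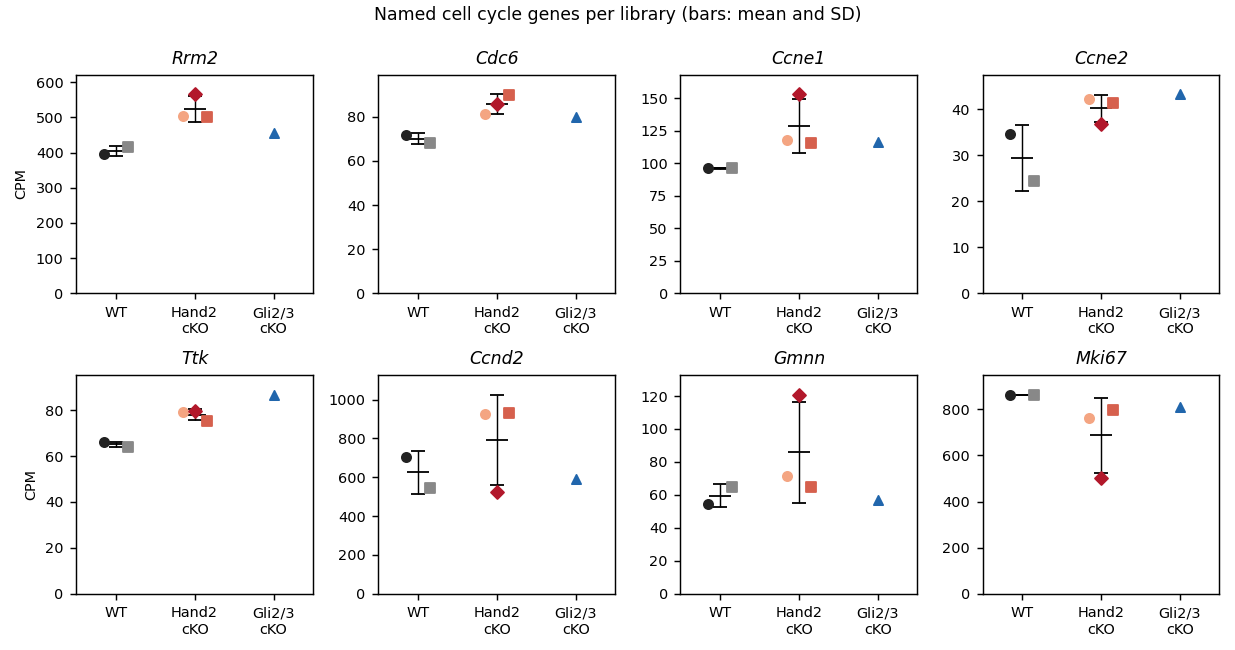
CPM of 8 named genes in each library by group, on axes that start at 0, with bars for the group mean and SD (2 WT and 3 Hand2 cKO libraries) and the single Gli2/3 cKO library. In CPM Rrm2, Cdc6, Ccne1, Ccne2 and Ttk are above WT in every mutant library, Mki67 is below WT in every mutant library, and the diamond of Hand2 cKO 2 is lowest for Ccnd2 and highest for Gmnn. In TPM Hand2 cKO 2 does not stand above both WT libraries for Rrm2, Cdc6, Ccne1, Ccne2 or Ttk.

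The mitosis genes leaned least, and the direction of their summed level depended on the scaling. A log2 fold change above 0 was found for 15 of 18 (49.9% of all genes), with a median of 0.16. Without Hand2 cKO 2 the median became 0.054, with 12 of 18 above 0 (47.4% of all genes). On the TMM scale 5 of 18 had every Hand2 cKO library above WT (15.3% of all genes). Those 5 were Ccna2, Cdc20, Cdc25c, Bub1 and Ttk. Without TMM 10 of 18 were above 0 (36.6% of all genes) with a median of 0.031. Every Hand2 cKO library was then above WT for 1 of 18 (8.80% of all genes) and below WT for 2 of 18 (23.2% of all genes). With TMM the 18 genes summed to 4093 and 4079 CPM in WT and to 4214, 4216 and 4175 CPM in Hand2 cKO. Scaled to library totals instead, the sums were 4241 and 4309 CPM in WT and 4179, 3744 and 4213 CPM in Hand2 cKO. Every Hand2 cKO library thus moved from above to below both WT libraries. The replication sums without TMM were above both WT libraries in every Hand2 cKO library, and the G1/S sums overlapped. Ttk (chr9:83834689-83872389), whose kinase starts the spindle checkpoint signal, stood at 65.9 and 64.1 CPM in WT, at 79.3, 79.4 and 75.1 CPM in Hand2 cKO, with 86.7 CPM in the Gli2/3 cKO library. In CPM the libraries of a group lay close together and every mutant library was above WT, with a log2 fold change of 0.26 ± 0.13 in Hand2 cKO. The TPM of Ttk in Hand2 cKO 2 was 38.7 against 51.7 and 44.7 in WT. Ccna2, the cyclin of S phase and G2, stood at 245 and 217 CPM in WT, at 278, 277 and 261 CPM in Hand2 cKO, with 268 CPM in the Gli2/3 cKO library. It too was above WT in each mutant library in CPM, with a log2 fold change of 0.24 ± 0.15 in Hand2 cKO that became 0.15 without WT 4. Its TPM in Hand2 cKO 2 was 134 against 200 and 179 in WT.

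Mki67 went the other way. The gene of the proliferation antigen Ki-67 stood at 863 and 864 CPM in WT, at 763, 500 and 797 CPM in Hand2 cKO, with 810 CPM in the Gli2/3 cKO library, below WT in every mutant library. Its log2 fold change in Hand2 cKO was -0.33 ± 0.24 (adjusted p = 0.723 by edgeR) and -0.16 ± 0.09 without Hand2 cKO 2. Top2a, the other common proliferation marker, stood at 811 and 788 CPM in WT, at 869, 706 and 844 CPM in Hand2 cKO, with 763 CPM in the Gli2/3 cKO library, with overlapping groups and a log2 fold change of 0.01 ± 0.17. Ccnb1, the main mitotic cyclin, was the steadiest gene in CPM, at 228 and 225 CPM in WT, at 226, 219 and 230 CPM in Hand2 cKO, with 220 CPM in the Gli2/3 cKO library. Its TPM was below WT in every mutant library. It was 254 in both WT libraries, 204, 134 and 234 in Hand2 cKO and 227 in Gli2/3 cKO. Its 95% interval in Hand2 cKO against WT ran from 0.78-fold to 1.26-fold. Ccnb2 stood at 85.2 and 90.3 CPM in WT, at 88.4, 128 and 84.6 CPM in Hand2 cKO, with 82.2 CPM in the Gli2/3 cKO library, so that Hand2 cKO 2 alone was high. The remaining 12 mitosis genes had log2 fold changes from -0.04 (Cdc25b) to 0.41 (Birc5), and without Hand2 cKO 2 that of Birc5 was 0.05.

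The second comparison asked the same of the loss of Gli2 and Gli3. In Gli2/3 cKO against WT none of the 41 genes was called by edgeR, where 0.0114% of all genes were called, and 0 passed an unadjusted p below 0.05 (4.59% of all genes, 1.63% higher and 2.96% lower). DESeq2 called 0 of the 41 (0.750% of all genes), with 1 at an unadjusted p below 0.05, Ttk (4.89% of all genes). The single Gli2/3 cKO library has no replicate, and its spread was taken from the other groups. The log2 fold change was above 0 for 18 of 41 genes (50.2% of all genes) with a median of -0.04, and by role the medians were -0.02 for G1/S, 0.06 for replication and -0.06 for mitosis. The library stood above both WT libraries for 12 genes (36.6% of all genes) and below both for 19 (33.7% of all genes), and 12 of those 19 were mitosis genes. Without Hand2 cKO 2, which enters here through the shared spread and scaling, 16 of 41 were above 0 (48.8% of all genes), 3 were higher at an unadjusted p below 0.05 (4.24% of all genes) and 2 lower (6.56% of all genes), with a lowest adjusted p of 0.310 at Ttk by edgeR. The 95% interval lay within 1.5-fold of no change for 12 of 41 genes (7.48% of all genes) and within 2-fold for 35 of 41 genes (41.6% of all genes).

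The highest positive values with all libraries were those of Ccne2, at 0.55 ± 0.25 on the log2 scale with a 95% interval of 0.96-fold to 2.23-fold, and Ttk, at 0.42 ± 0.17 with an interval of 0.99-fold to 1.79-fold. The adjusted p was 1 for both by edgeR. The value of Ccne2 was 0.83 without WT 3 and 0.32 without WT 4, where Ttk at 0.39 exceeded it. Smaller positive values were those of Ccna2 at 0.21 ± 0.20 (0.13 without WT 4), Cdc6 at 0.19 ± 0.18 and Rrm2 at 0.17 ± 0.21. These are the same WT libraries that served the Hand2 cKO comparison, so the values of the 2 mutants against WT are not independent. On the lower side Cdk6 had a log2 fold change of -0.40 ± 0.33 (-0.19 without WT 3), Pcna of -0.38 ± 0.27, Cdc25b of -0.34 ± 0.20 and Ccnd3 of -0.30 ± 0.23. Cdc25b, a phosphatase that activates CDK1, stood at 49.97 and 56.9 CPM in WT, at 47.9, 55.4 and 52.5 CPM in Hand2 cKO, with 42.2 CPM in the Gli2/3 cKO library. For each of these 4 genes the Gli2/3 cKO library was the lowest of the 6.

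Set directly against Hand2 cKO, the Gli2/3 cKO library had lower estimates for most genes. No gene was called by edgeR (0.0343% of all genes, 0.0172% higher and 0.0172% lower), with 0 at an unadjusted p below 0.05 (5.48% of all genes, 2.86% higher and 2.63% lower), and DESeq2 called 0 of the 41 (0.824% of all genes), with 1 gene, Pcna, at an unadjusted p below 0.05 (5.41% of all genes). The log2 fold change was above 0 for 5 of 41 genes (48.2% of all genes) and for 0 of the 13 replication genes, with a median of -0.16 over the 41 against -0.02 over all genes. The Gli2/3 cKO library stood below all 3 Hand2 cKO libraries for 24 genes (27.2% of all genes) and above all 3 for 4 (28.7% of all genes), which were Ccnd1, Ccne2, Mki67 and Ttk. Without TMM the median of the 41 was -0.06 against 0.08 over all genes, and 13 of 41 were above 0 (58.5% of all genes). Without Hand2 cKO 2 the median was -0.11 and 7 of 41 genes were above 0 (49.2% of all genes), 29 had the library below both others (38.8% of all genes) and 4 were lower at an unadjusted p below 0.05 (4.44% of all genes), with a lowest adjusted p of 0.326 at Cdk6 by edgeR. The 95% interval lay within 1.5-fold of no change for 12 genes (10.9% of all genes) and within 2-fold for 32 (42.4% of all genes). Cdk6 had the lowest value, -0.62 ± 0.32, followed by Gmnn at -0.60 ± 0.39 (-0.27 without Hand2 cKO 2) and Pcna at -0.55 ± 0.26, and the adjusted p was 0.906 for each by edgeR. Ccnd3 had a value of -0.43 ± 0.22, Ccnd2 of -0.42 ± 0.38 (-0.65 without Hand2 cKO 2), Mcm6 of -0.32 ± 0.20 and Cdc25b of -0.30 ± 0.19. Aurka, the kinase of centrosomes and spindle poles, stood at 115 and 133 CPM in WT, at 136, 181 and 127 CPM in Hand2 cKO, with 113 CPM in the Gli2/3 cKO library, a log2 fold change of -0.39 ± 0.26 between the mutants, or -0.22 without Hand2 cKO 2. Plk1, the polo-like kinase, stood at 163 and 171 CPM in WT, at 165, 191 and 178 CPM in Hand2 cKO, with 147 CPM in the Gli2/3 cKO library, a log2 fold change of -0.28 ± 0.19. The Gli2/3 cKO library was the lowest of the 6 for both kinases. This comparison shares its Hand2 cKO libraries with the first, so a high Hand2 cKO value enters both.

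The transcripts behind the counts differed in how far they could be assigned. The main transcript took over 90% of the estimated counts of 21 to 25 of the 41 genes, depending on the library. Cdk4 was the least certain: its main transcript took 28.1% and 16.01% of its counts in WT, 31.7%, 37.4% and 31.3% in Hand2 cKO and 30.4% in Gli2/3 cKO, with the rest spread over 8 others. The main transcript of Cenpa, the histone H3 variant of centromeres, took 38.2% to 52.2%, and that of Tyms 46.1% to 54.1%. The share of the main transcript was lowest in WT 4 for 16 of the 38 genes with more than 1 transcript in use. Ccna2 gave an example, with 68.5% in WT 4 and 84.2% to 98.4% in the other libraries. Since counts were summed over transcripts, these shares enter the levels per length and not the CPM values.

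Other genes of the same machinery were taken from further lists that share no gene with the 41. In the list of origin recognition and helicase loading and activation genes, 14 of 14 had a log2 fold change above 0 in Hand2 cKO against WT (49.9% of all genes), with a median of 0.27. In that of replication fork and nucleotide genes 18 of 19 did, with a median of 0.26. Neither list had a called gene in this comparison by edgeR (0.0114% of all genes) or DESeq2 (1.04% of all genes). At an unadjusted p below 0.05 by edgeR the first list had 1 of 14 genes, Orc5, where 6.47% of all genes passed (2.44% higher). Its log2 fold change in Hand2 cKO was 0.34 ± 0.14 (adjusted p = 0.723 by edgeR). Orc5, a subunit of the origin recognition complex, stood at 31.9 and 31.3 CPM in WT, at 39.6, 43.4 and 37.5 CPM in Hand2 cKO, with 42.9 CPM in the Gli2/3 cKO library. No mutant library reached down to WT for this gene. Without Hand2 cKO 2 the medians of these lists were 0.18, with 13 of 14 above 0, and 0.12, with 16 of 19 above 0 (47.4% of all genes). Without TMM they were 0.15, with 12 of 14 above 0, and 0.13, with 15 of 19 (36.6% of all genes).

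The genes that hold the cycle back had values on both sides of 0. Of 7 CDK inhibitor genes 6 were tested, 3 of them with a log2 fold change above 0 in Hand2 cKO against WT (49.9% of all genes). The median was -0.02, or -0.16 with 1 of 6 above 0 without Hand2 cKO 2 (47.4% of all genes). Cdkn1c, the inhibitor p57 and the most abundant of them, stood at 403 and 249 CPM in WT, at 298, 426 and 277 CPM in Hand2 cKO, with 234 CPM in the Gli2/3 cKO library, so that WT and Hand2 cKO overlapped widely. Cdkn2c stood at 2.30 and 2.61 CPM in WT, at 2.27, 2.11 and 1.42 CPM in Hand2 cKO, with 1.15 CPM in the Gli2/3 cKO library, with a log2 fold change of -1.09 ± 0.45 in Gli2/3 cKO against WT (unadjusted p = 0.049, adjusted p = 1 by edgeR). Among 12 pocket protein and other E2F genes, 6 were above 0 in Hand2 cKO against WT (49.9% of all genes) with a median of -0.01, and among 22 other mitosis genes 18 were, with a median of 0.07. Without TMM these became 2 of 12 with a median of -0.13 and 9 of 22 with a median of -0.06. Over all genes the median was then -0.12, with 36.6% above 0. In Gli2/3 cKO against WT the helicase loading list had 13 of 14 genes above 0 (50.2% of all genes) with a median of 0.13, and the fork list 11 of 19 with a median of 0.02.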

How the data were processed

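Bulk RNA-seq libraries of MNPs were grouped by the genotype in the labels. Of the 10 labelled samples 6 were used and 4 were not analysed here. The deposited files hold expected counts, estimated by the authors' program (Strand NGS per the study's methods, mm10 per the labels) for each of 105129 transcripts. Its version and annotation: not given in the sources used here. The authors named DESeq2 for their own tests. The design had assumed whole counts, so estimates were summed per symbol and rounded. Depth was 21420197 to 53326697 estimated counts, which limits counting error only. Same-group libraries differed by more than sampling noise (chi-square per degree of freedom 19.7 to 181).

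Genes passing filterByExpr (17477) were fitted with edgeR 4.0.16 (TMM, quasi-likelihood, genotype as the only term, all 6 libraries, 3 residual degrees of freedom) in R 4.3.3, and p-values were adjusted by Benjamini-Hochberg over all of them. The script was tested on simulated data. A gene was called at an adjusted p below 0.05 and a fold above 1.5. CPM values use TMM-scaled library sizes. TPM divides the counts of each transcript by its own length (GENCODE M21, mm10), scales each library to the same total and sums over the transcripts of a gene. The length trend uses the count-weighted mean length of a gene's transcripts. Alternatives were DESeq2 1.42.0, its size factors, no filter, only the groups compared, removal of each library's length trend, library totals without TMM and leaving out each library.

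Named were the 3 genes with the smallest p per role and comparison, any called gene, fixed families and markers, up to 2 genes per further list and the 3 genes with the widest range. Others named as exceptions or steadiest were chosen after their values were seen. The 41 genes, the lists and the tests were chosen with earlier results of these data known. One result of the further lists is not reported here.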

Additional observations from a re-analysis of the deposited data

How the results depend on the processing

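No paired analysis was possible because the labels only number the libraries within each group and state no pairing between groups. Among the libraries with a file here the groups share only replicate number 3, and the other labelled libraries were not analysed here. The count of called genes among the 41 was 0 in each of the 3 comparisons under every alternative run, also with no fold threshold. Leaving out each library in turn, the median log2 fold change in Hand2 cKO against WT ranged from 0.059 to 0.21 for G1/S, from 0.11 to 0.24 for replication and from 0.054 to 0.20 for mitosis genes, with each lowest value without Hand2 cKO 2. In Gli2/3 cKO against WT the G1/S median ranged from -0.037 to 0.028, changing sign without WT 3. In Gli2/3 cKO against Hand2 cKO it ranged from -0.23 to -0.051 and the mitosis median from -0.24 to -0.11. DESeq2, other size factors, no filter and length correction moved none of the 9 role medians beyond a set spread. That spread was the SD of the role's median deviation over the 3 Hand2 cKO libraries, with Hand2 cKO 2 among them. It was 0.026 for G1/S, 0.13 for replication and 0.084 for mitosis genes, and it served all 3 comparisons. In Hand2 cKO against WT, E2f1, Ccnb2, Cdk1 and Cenpa changed sign without Hand2 cKO 2 (to -0.01, -0.03, -0.02 and -0.06), and Ccnd1 did with the length trend removed (to 0.02). With library totals in place of TMM, added after seeing the data, the G1/S and mitosis medians were 0.070 and 0.031 in Hand2 cKO against WT and -0.038 and -0.10 in Gli2/3 cKO against Hand2 cKO, where 13 of the 41 genes were above 0. The cause of the shifts without a library was not tested. Over all genes the number called in Hand2 cKO against WT was 2 by edgeR, 182 by DESeq2 and 39 without Hand2 cKO 2. In Gli2/3 cKO against WT it was 2, 131 and 14, and in Gli2/3 cKO against Hand2 cKO 6, 144 and 23. Removing the length trend gave 50, 10 and 35, and with no filter on low counts Hand2 cKO against WT had 6 higher and 39 lower. The counts of genes above 0 and of non-overlapping libraries without Hand2 cKO 2 or with the length trend removed were added after seeing the data. With the length of the longest transcript in place of each transcript's own length, Cdk4 kept the highest level (1147 TPM in WT), while Ccnd3 went from 242 to 153 TPM, Cenpa from 332 to 147 TPM, Cdk1 from 402 to 120 TPM, Birc5 from 244 to 101 TPM and Tyms from 233 to 91.4 TPM. The small number of libraries limits the precision, as the 95% intervals show.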
